A study of Drosophila melanogaster with 4 samples.

Results

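The regions described here are the places on the X chromosome of Drosophila melanogaster where chromatin immunoprecipitated with an antibody against dSFMBT was enriched. They were chosen by position alone: each region that the list combining both ChIP replicates puts on X was taken, which gave 1684 regions of the 9756 in that list. The material was wild-type Oregon-R larvae at the third instar, with no transgene or treatment named. It gave 2 ChIP libraries made with antibody Q2642 and 2 input libraries. Each ChIP replicate also had a list of its own, with 1004 regions on X in replicate 1 and 1085 in replicate 2, while the inputs had no list used here. The labels do not give the sex of the larvae, the tissues or the number pooled, so which cells the regions come from is not known.

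Polycomb group proteins keep developmental genes silent in cells where those genes were not switched on earlier. Most of their complexes do not read DNA themselves. In flies they are brought to short stretches called Polycomb response elements, in part by the DNA-binding protein Pho, and dSFMBT is the partner of Pho in the complex PhoRC. Around such an element the mark that Polycomb complexes set on histone H3 can spread over a domain much wider than the element, so narrow strong binding and broad weak binding are both known for these proteins. The X chromosome is present as a pair in females and once in males, where the dosage compensation complex raises its transcription.

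The authors gave every region a score. Its values behaved as log2 numbers, so that a score of 1 is a ratio of 2, but the reference of that ratio is unknown. Positions are those of FlyBase release 5. No gene is named and no sequence is shown, because the only reference at hand was a gene table of release 6. Read depth was unknown from these files. Regions are not replicates of each other, and an exact two-sided sign-flip test over the 2 ChIP libraries cannot give a p below 0.5. Values are therefore descriptions of these lists, and intervals on shares cover counting error only.

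Of the 1684 X regions, 709 overlapped a region of each replicate list by at least 1 bp. That is 42.1% (95% exact Clopper-Pearson interval 39.7 to 44.5%), beside 41.4% over all sequences of the combined list. A further 183 overlapped replicate 1 alone and 292 overlapped replicate 2 alone. The remaining 500, or 29.7% (27.5 to 31.9%), overlapped neither, beside 32.1% over all sequences. On the autosome arms 2L, 2R, 3L and 3R the share found in both replicates ran from 40.5% to 44.9%, so the X value lay inside their range.

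The classes differed in width and score. The 709 regions found in both replicates covered 2633 kb, their median score was 0.61 (a ratio of 1.53) and their median width 3021 bp. For regions found in neither, the median score was 0.41 and the median width 1247 bp. Regions found in replicate 1 alone had medians of 1828 bp and 0.43, and those found in replicate 2 alone had medians of 1961 bp and 0.39. None of the regions found in a single replicate scored above 1. The narrowest region of the replicate lists on any sequence was 1301 bp wide, and 278 of the 500 X regions found in neither were narrower than that. Among the 1365 X regions at least 1301 bp wide, 51.9% were found in both replicates (49.3 to 54.6%), against 53.8% on the 4 autosome arms together (52.5 to 55.0%).

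**Figure D1:**
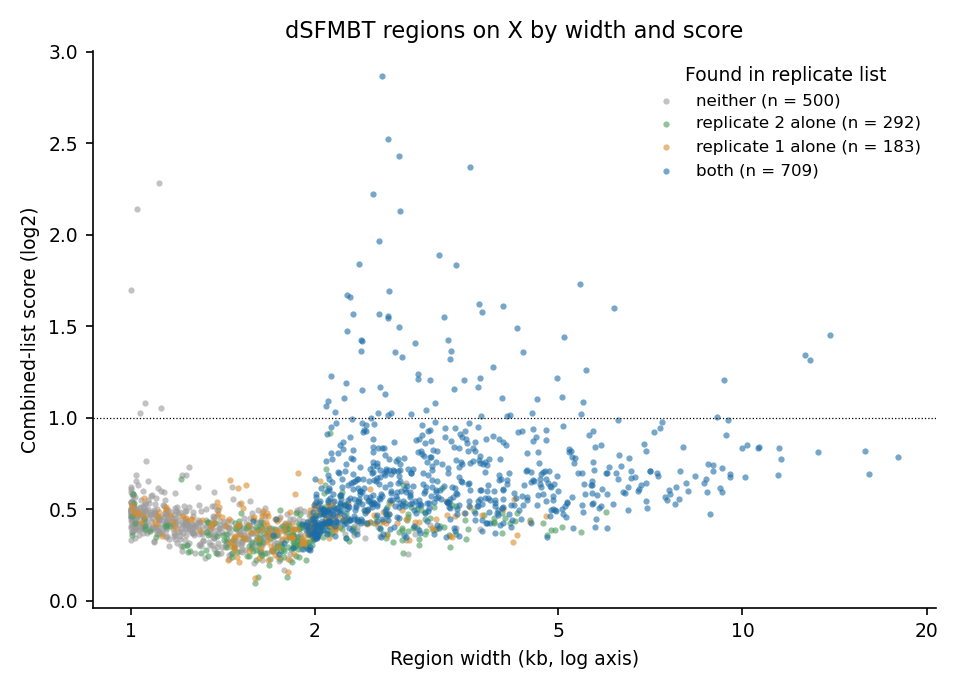
Each point is one of the 1684 combined-list regions on X, with its width in kb on a log axis and its combined-list score on a log2 scale, coloured by the replicate lists in which it was found. Regions found in both replicates fill the part above 2 kb, and the 6 regions above a score of 1 that were found in neither lie near 1 kb.

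How often an X region was found in both replicates rose with its score and its width. The combined list draws on the same 2 ChIP libraries, and a wider region meets an overlap of 1 bp more easily. These shares are therefore no independent measure of reproducibility. Of the 421 regions in the lowest quartile of X scores, which ran from 0.10 to 0.39, 10.2% had a match in each library (95% exact interval 7.49 to 13.5%). In the second quartile the share was 19.7%, in the third 47.5%, and in the highest quartile, from 0.59 to 2.87, it was 91.0% (87.8 to 93.5%). By width, 6.52% of 491 regions from 1301 to 2000 bp were found in both, 69.7% of 458 from 2001 to 2997 bp, 81.0% of 290 from 3004 to 4990 bp and 97.6% of 126 from 5063 bp upwards. In the lowest quartile 34.4% of the regions were found in replicate 2 alone and 13.8% in replicate 1 alone, and in the highest quartile 1.66% and 1.43%.

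Seen from the replicate lists, 790 of the 1004 X regions of replicate 1 overlapped an X region of replicate 2, which was 78.7% (76.0 to 81.2%). In the other direction it was 766 of 1085, or 70.6% (67.8 to 73.3%). Only 20 X regions of replicate 1 and 7 of replicate 2 had no counterpart in the combined list.

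The libraries placed the shared regions close together. For 595 of the 709 regions found in both replicates, each replicate held exactly 1 matching region, and the centres of the matched pair lay a median of 157.5 bp apart. The starts differed by a median of 173 bp and the ends by 165 bp, and 28 pairs had centres more than 1 kb apart. Among the 69 such regions with a combined score above 1 the median distance between centres was 77.5 bp, against 170.2 bp for the others. Pairs were formed by overlap, which itself limits these distances.

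Replicate scores of the 709 regions followed each other with a Spearman rho of 0.71 and a Pearson r of 0.84, across regions that share their libraries and are not independent. The median score was 0.68 in replicate 1 and 0.70 in replicate 2, and the SD of a pair of replicate scores had a median of 0.079. Replicate 2 scored higher in 410 of the 709 regions. In the highest quartile of the 709 by combined score, 124 of 177 regions scored higher in replicate 2, with a median difference of 0.13. In the lowest quartile 80 of 178 did, with a median difference of -0.013. Replicate 2 exceeded replicate 1 by more than 0.5 at 21 regions, and the reverse occurred at 0 regions, where the most negative difference was -0.48. With the combined scores the rho was 0.93 for replicate 2 and 0.83 for replicate 1, so a choice of regions by combined score may favour those that were high in replicate 2. That caution applies to these quartiles and to each group of strong regions given next. The replicate lists, not chosen by combined score, also differed: 91 of 1004 X regions scored above 1 in replicate 1 and 120 of 1085 in replicate 2. Choice by combined score and a difference between the libraries cannot be told apart here.

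**Figure D2:**
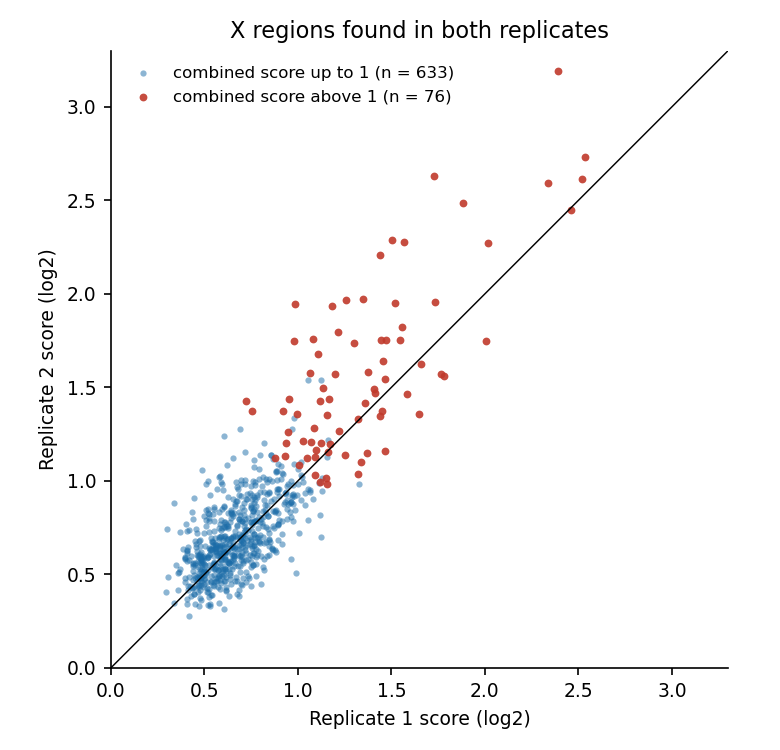
The replicate 1 score (horizontal axis, log2) and replicate 2 score (vertical axis, log2) of each of the 709 X regions found in both replicates, with a line where the scores are equal and red points for the 76 regions with a combined score above 1. Of the 76 red points 57 lie above the line, and the points farthest from it are on the replicate 2 side.

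A combined score above 1 was reached by 76 of the 709 regions, or 10.7%, beside 11.7% over all sequences. Of these 76, 65 also scored above 1 in replicate 1, 74 in replicate 2 and 63 in each. The median width of the strong regions was 3057 bp, against 3017 bp for the 633 regions with scores up to 1. Median width rose from 2261.5 bp in the lowest quartile of combined score to 3098 bp in the second and 3466 bp in the third. In the highest quartile it was 3323 bp, so the rise did not hold over the whole range. The rho between score and width was 0.34 across the 709 regions, 0.60 in the replicate 1 list and 0.70 in the replicate 2 list on X.

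The 15 regions found in both replicates with the highest combined scores ran from 1.62 to 2.87, that is from ratios of 3.07 to 7.29. They were 2258 to 5426 bp wide. Replicate 1 scores among them ran from 1.26 to 2.52 and replicate 2 scores from 1.75 to 3.19, and 13 of the 15 were higher in replicate 2. The order was only partly the same in each library, since 9 of the 15 were among the 15 highest of replicate 1 and 12 among the 15 highest of replicate 2.

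Most of them lay in a few places. Of the 15, 7 lay between 5182818 and 5511235, 4 between 17424785 and 17663739 and 2 between 8517817 and 8546498. The remaining pair lay from 6425982 to 6429377 and from 11472112 to 11475821. The former scored 1.73 in replicate 1 and 1.96 in replicate 2, and the latter 1.47 and 1.75. The single 1-Mb bin from 5 to 6 Mb held 13 of the 76 regions above 1, the bins from 8 to 9 and from 17 to 18 Mb held 8 each, and these 3 of 22 full bins thus held 38.2% of them. The 3 bins were picked for holding the most, and no like share is given for the autosome arms. The bins from 14 to 15 and from 20 to 21 Mb held none above 1 among their 12 and 24 regions found in both replicates. When regions above 1 that lay within 50 kb of each other were joined, the 76 formed 50 stretches. Of these, 38 held a single region and 7 held at least 3, with 28 of the 76 between them. The most in a single stretch was 7 on X, inside the range of the 4 autosome arms, from 4 on 2R to 14 on 3R. Another region above 1 lay within 50 kb for 38 of the 76, or 50.0%, against 37.8% on 2L to 48.7% on 3L over the 4 autosome arms. The median distance to the nearest such region was 47.5 kb, against 50.0 kb on 3L to 83.5 kb on 2L. Regions with scores up to 1 differed little by their distance to a strong one: the median score was 0.62 for 60 regions within 10 kb, 0.60 for 130 from 10 to 50 kb and 0.58 for 443 further away.

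The stretch with the most strong regions ran from 5417336 to 5511235, over 93.9 kb, and held 7 regions above 1 among 8 found in both replicates. Its first region, from 5417336 to 5419911, had the highest combined score of any X region found in both replicates, 2.87, and it scored 2.39 in replicate 1 and 3.19 in replicate 2. Only 4.35 kb to its right, centre to centre, the region from 5421705 to 5424246 scored 1.57 and 2.28. Both stood higher in replicate 2 by more than 0.7. At 36.1 kb the region from 5453340 to 5456085 scored 2.46 in replicate 1 and 2.45 in replicate 2, a mean of 2.46 ± 0.011 (SD, n = 2). It was one of the 2 among the 15 that did not score higher in replicate 2. Further right the region from 5486941 to 5489198 scored 1.56 and 1.82. The last of the stretch, from 5505810 to 5511235, was the widest of the 15 and had 2 pieces in each replicate list, with highest scores of 1.73 and 2.63. The only member at or under 1, from 5457612 to 5459985, scored 0.78 and 0.69. Gaps without a region found in both replicates lay between the members, so the stretch was a row of separate regions in these lists and not a single plateau.

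To its left, from 5182818 to 5212409, lay a shorter stretch of 3 regions above 1. Its strongest region, from 5204746 to 5208325, scored 2.34 in replicate 1 and 2.59 in replicate 2. The region from 5182818 to 5185100 scored 1.26 and 1.97. A region at 1.04 by combined score followed 4.36 kb to the right of the strongest, and it scored 0.94 in replicate 1 and 1.26 in replicate 2, so it passed 1 in the latter alone.

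The stretch from 17612422 to 17715752 was the longest, 103.3 kb, with 5 regions above 1 among 10 found in both replicates. Its strongest region, from 17661104 to 17663739, was alike in each library, with 2.52 in replicate 1 and 2.61 in replicate 2. The region from 17644589 to 17647081, 16.6 kb to the left, scored 1.88 and 2.49. The left border region, from 17612422 to 17615612, scored 1.44 and 2.21, and the right border region, from 17713203 to 17715752, scored 1.18 and 1.94. The border regions thus differed between libraries by more than the strongest region did. Between them a broad region of 11464 bp, from 17629573 to 17641036, had a combined score of 0.83. Its highest pieces scored 0.77 in replicate 1 and 1.11 in replicate 2.

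Near 8.5 Mb the stretch from 8517817 to 8591653 held 4 regions above 1 among 8. The region from 8543743 to 8546498 scored 2.02 in replicate 1 and 2.27 in replicate 2. The region from 8517817 to 8520176 scored 2.00 and 1.75, and was the other of the 15 that did not score higher in replicate 2. A further stretch of 3 regions above 1, from 8650999 to 8702524, followed it, led by the region from 8698777 to 8702524 at 1.78 and 1.56. Within it the region from 8678822 to 8681056 was uneven between libraries, at 0.72 in replicate 1 and 1.43 in replicate 2.

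**Figure D3:**
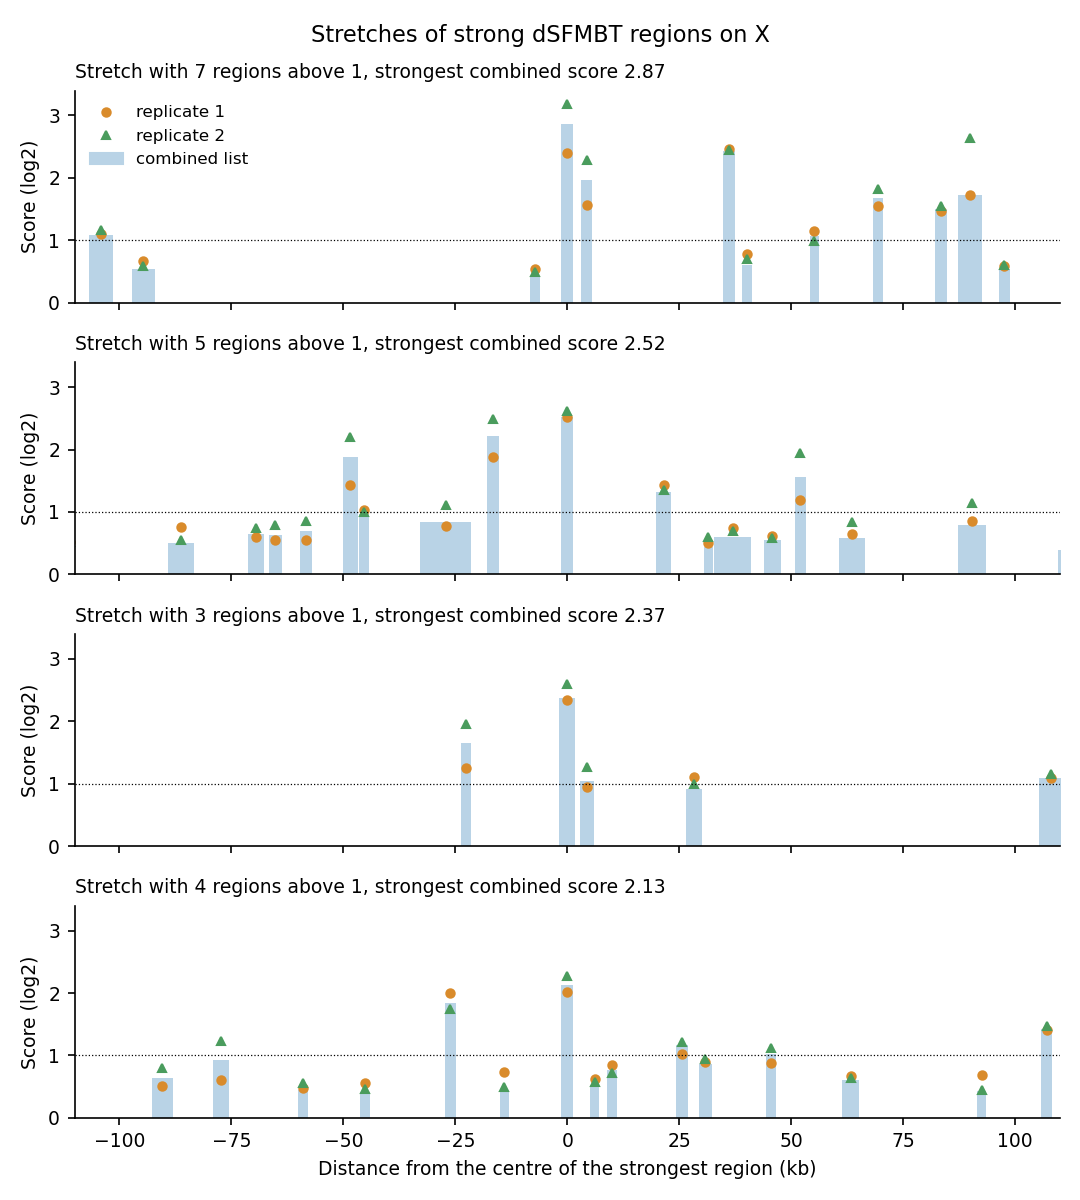
The 4 stretches of strong X regions with the highest top scores, drawn as distance in kb from the centre of the strongest region (horizontal axis) against score on a log2 scale (vertical axis). Bars are the combined-list regions found in both replicates, as wide as the regions, circles are the replicate 1 scores and triangles the replicate 2 scores. At least 1 weak region with a combined score under 1 stands between strong ones in each panel with 4 or more strong regions.

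A stretch of another kind lay from 1972546 to 2041575. Its 3 regions above 1 were 9092, 12660 and 13887 bp wide, against a median of 3057 bp for the regions above 1. The widest, from 2027689 to 2041575, scored 1.45 in replicate 1, where it was a single piece of 13670 bp. In replicate 2 it scored 1.64 over a piece of 10225 bp, with a further piece of 2730 bp at 0.66. The region from 2012978 to 2025637 scored 1.58 in replicate 1 over 7078 bp, flanked by pieces at 0.75 and 0.62, and 1.46 in replicate 2 over 10686 bp. These were 2 of the 3 X regions that were both wider than 10 kb and above 1. The remaining stretch of 3 regions above 1, from 9622120 to 9669362, had scores from 1.14 to 1.75 in the replicates.

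Most regions wider than 10 kb did not pass a combined score of 1, though their median was above that of the 709. Some with combined scores up to 1 did pass 1 by the highest piece in a replicate. Of the 709 regions, 14 were wider than 10 kb, or 1.97%, beside 1.68% over all sequences. Their median combined score was 0.82, against 0.61 for the 709. Of the 14, 3 had a combined score above 1, a larger share than the 10.7% of the 709. The 14 made up 6.78% of the length covered by the 709. In at least one replicate list 13 of the 14 were split into pieces, and 9 were split in each. The widest, from 6637036 to 6654986 and 17951 bp long, was 4 pieces in each library, with scores from 0.63 to 0.89 in replicate 1 and from 0.70 to 1.09 in replicate 2. The region from 11480443 to 11496325, 15883 bp, was 7 pieces in replicate 1, all between 0.68 and 1.02, and 2 pieces in replicate 2, at 1.02 and 0.80. The scores of its pieces were thus close to each other, with no piece far above the rest. The region from 1268191 to 1284290, 16100 bp, had highest scores of 0.90 in replicate 1 and 0.79 in replicate 2, and that from 18372666 to 18385960, 13295 bp, had 0.93 in each.

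One broad region was of mixed form, and was picked out after its values had been seen. The region from 5790748 to 5803621 was 12874 bp wide and had a combined score of 1.31, rank 40 of the 709. Each replicate list split it at nearly the same place. In replicate 1 it held a piece of 7016 bp at 0.78 and a piece from 5800965 to 5803550 at 2.53, the highest replicate 1 score among the 709. In replicate 2 it held a piece of 9138 bp at 0.96 and a piece from 5800929 to 5803606 at 2.73, the second highest in that library. The combined score of the whole region thus did not show the strong narrow piece at the edge of a broad weak one. It was the only 1 of the 709 whose combined score lay more than 0.5 below each replicate score. In general 413 of the 709 combined scores lay below each replicate score, 294 lay between them and 2 lay above, where a replicate score is the highest of the pieces. Among the 595 regions with 1 piece in each replicate, 317 also lay below each. Of the 72 regions above 1 in each replicate, 9 had combined scores up to 1.

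The largest differences between libraries were all towards replicate 2. High scores were more frequent in replicate 2 on the autosome arms too. On the 4 arms together 8.20% of replicate 1 regions and 12.4% of replicate 2 regions scored above 1, beside 9.06% and 11.1% on X. The region from 3236886 to 3239190 scored 0.99 in replicate 1 and 1.95 in replicate 2, a mean of 1.47 ± 0.68 (SD, n = 2). That from 15546405 to 15548791 scored 0.98 and 1.75, and that from 3027545 to 3031605 scored 1.50 and 2.29. The other members of the 5 largest differences were the regions from 5505810 and from 5417336 given above. Such differences exist only for regions found in both replicates.

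Strong scores outside the shared set were few. Among the 500 X regions found in neither replicate, 6 scored above 1, or 1.2%, beside 1.50% on the 4 autosome arms together. All 6 were between 1001 and 1119 bp wide. The highest, from 21467125 to 21468236, scored 2.28, and the next, from 4815797 to 4816818, scored 2.14. The third, from 2026667 to 2027667, scored 1.70 and ended 21 bp before the broad region from 2027689 to 2041575. Of the 6, 3 lay right of 21 Mb, in the part of X near its centromere. Among the regions found in a single replicate, the highest in replicate 2 alone was from 10145950 to 10148065, at 0.92 by combined score and 1.44 in replicate 2. The highest in replicate 1 alone was from 1892963 to 1894842, at 0.70 by combined score and 1.05 in replicate 1.

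Along the chromosome, the 22 full 1-Mb bins held from 44 to 108 combined-list regions, with a median of 75.5, and from 12 to 50 regions found in both replicates, with a median of 31.5. The fullest bins were 1 to 2 Mb with 108 regions, 2 to 3 Mb with 102 and 13 to 14 Mb with 94. The emptiest were 14 to 15 Mb with 44, 20 to 21 Mb with 49 and 12 to 13 Mb with 50. In the bin from 1 to 2 Mb, 77 regions of the replicate 1 list and 73 of the replicate 2 list were counted, and in the bin from 14 to 15 Mb 17 and 26. The fullest bin was not the one with most strong regions: the bin from 1 to 2 Mb had 50 regions found in both replicates and 4 above 1, while the bin from 5 to 6 Mb had 36 and 13. In windows of 100 kb, the most regions found in both replicates were 10, from 1.9 to 2.0 Mb, where they covered 51.7 kb. There were 5 windows with 9 regions, among them those from 6.4 to 6.5 Mb, covered over 47.6 kb, and from 17.6 to 17.7 Mb, covered over 38.3 kb.

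Long stretches without any combined-list region were also present, and the 5 longest are given here. The first ran for 233.8 kb from 20664433 to 20898200 and held no region of either replicate list. Its length lay inside the range of the longest such gaps on the 4 autosome arms, from 201.7 kb on 2R to 308.3 kb on 2L. The other X stretches ran for 197.9 kb from 4602561 to 4800433, for 182.7 kb from 7234944 to 7417603, for 181.8 kb from 21610127 to 21791925 and for 168.6 kb from 22057247 to 22225875. Apart from 1 replicate 2 region in the stretch from 4602561, they too held none. Of the 5 stretches, 3 lay right of 20 Mb. The first X region began 4893 bp from the left end of the assembled chromosome and was found in replicate 1 alone, at 0.46 by combined score. The last ended 5916 bp before the right end and was found in both, at 0.87 in replicate 1 and 0.63 in replicate 2.

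X regions lay close together. Of the 1684, 91.1% had another X region within 10 kb, beside 89.4% over all sequences for the same count and 88.9% on 2L to 92.0% on 2R over the 4 autosome arms. The median gap between adjacent regions was 3855 bp, longer than the 3730.5 bp of 2R and shorter than on the other arms, and 229 of the 1683 gaps were at most 500 bp. Of those 229 gaps, 40 separated a pair of regions found in both replicates, and 63 separated such a region from one found in neither. No background was computed for these pairs, so the counts do not show that any classes lie together more than their sizes give. When regions up to 500 bp apart were merged, the 1684 became 1455, of which 88.3% still had a neighbour within 10 kb. Among the 709 regions found in both replicates, 76.3% had another of them within 10 kb, against 61.7% on 3L to 70.2% on 2R over the 4 autosome arms. After merging across 500 bp the values were 73.8% on X and from 57.7% to 68.3% on those arms. X was also the highest of the 5 by this share in the replicate 1 list, at 82.8% against 69.8 to 80.8%, and in the replicate 2 list, at 84.0% against 77.1 to 81.0%. Its median gap between regions found in both was 9119.5 bp, against 10321 to 14116 bp. In the replicate 1 list the median gap was 6927 bp on X and 6922 bp on 2R. At longer distances X did not lead: 83.8% of its gaps between regions found in both were up to 50 kb, against 88.8% on 2R and 85.6% on 3R, and 92.4% were up to 100 kb, the lowest of the 5. The density of such regions on X, 31.6 per Mb, lay inside the range of the arms, 29.1 to 38.8 per Mb. The lead of X at 10 kb was seen in each replicate list, while the order of the other arms differed between the lists. It was not tested.

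**Figure D4:**
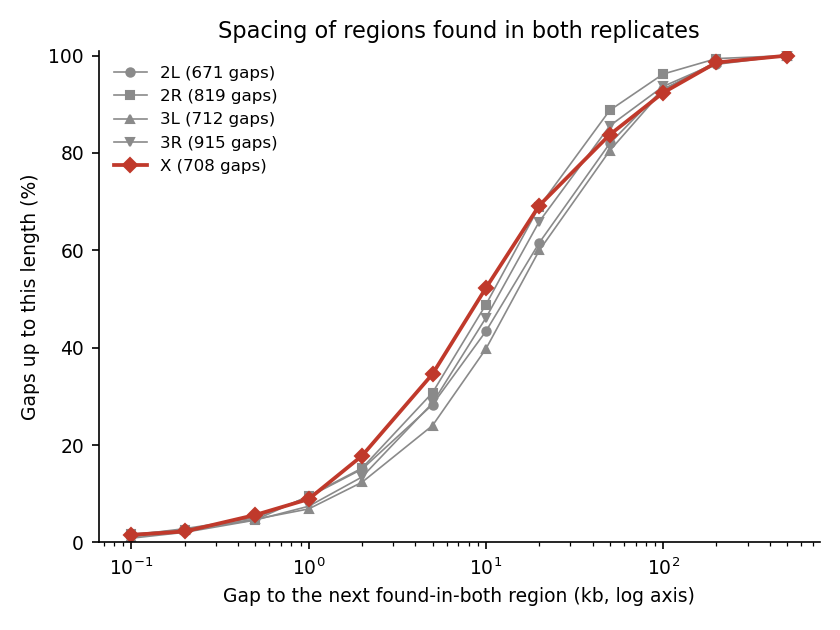
The percentage of gaps between adjacent regions found in both replicates (vertical axis) that are no longer than the distance on the horizontal axis (kb, log axis), for X in red and for 4 autosome arms in grey. At 10 kb the X curve stands highest, at 52.3% of 708 gaps, and at 100 kb it stands lowest, at 92.4%.

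Low scores were rarer on X than on the autosome arms, while the high values were similar. In the replicate 1 list the 10th percentile was 0.47 on X against 0.39 to 0.43 over the 4 arms, and the median was 0.65 against 0.56 to 0.58. In the replicate 2 list the 10th percentile was 0.43 against 0.35 to 0.38, and the median 0.62 against 0.55 to 0.58. In the combined list it was 0.33 against 0.26 to 0.28, with a median of 0.46 against 0.39 to 0.40. X stood above each of the 4 arms at the 10th, 25th, 50th and 75th percentiles in all 3 lists. At the 90th percentile it fell among or below them, with 0.98 against 0.91 to 0.99 in replicate 1 and 1.02 against 1.05 to 1.14 in replicate 2. The lowest score on X was 0.28 in replicate 1, where the arms together reached down to 0.20, and 0.26 in replicate 2, where they reached 0.14. Of the X regions, 3.29% in replicate 1, 3.50% in replicate 2 and 3.62% in the combined list scored under the 10th percentile of the 4 arms. Widths did not shift in the same way in the replicate lists, where the median width on X was 2016.5 bp in replicate 1 against 2021 to 2093.5 bp on the arms, and 2157 bp in replicate 2 against 2127 to 2190 bp. Among regions found in both replicates the X median of 3021 bp lay above the 2702 to 2994 bp of the arms. The X minus autosome difference in median score was 0.085 in replicate 1 and 0.058 in replicate 2, and the exact two-sided sign-flip test over the libraries gave p = 0.5, the smallest it can give.

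**Figure D5:**
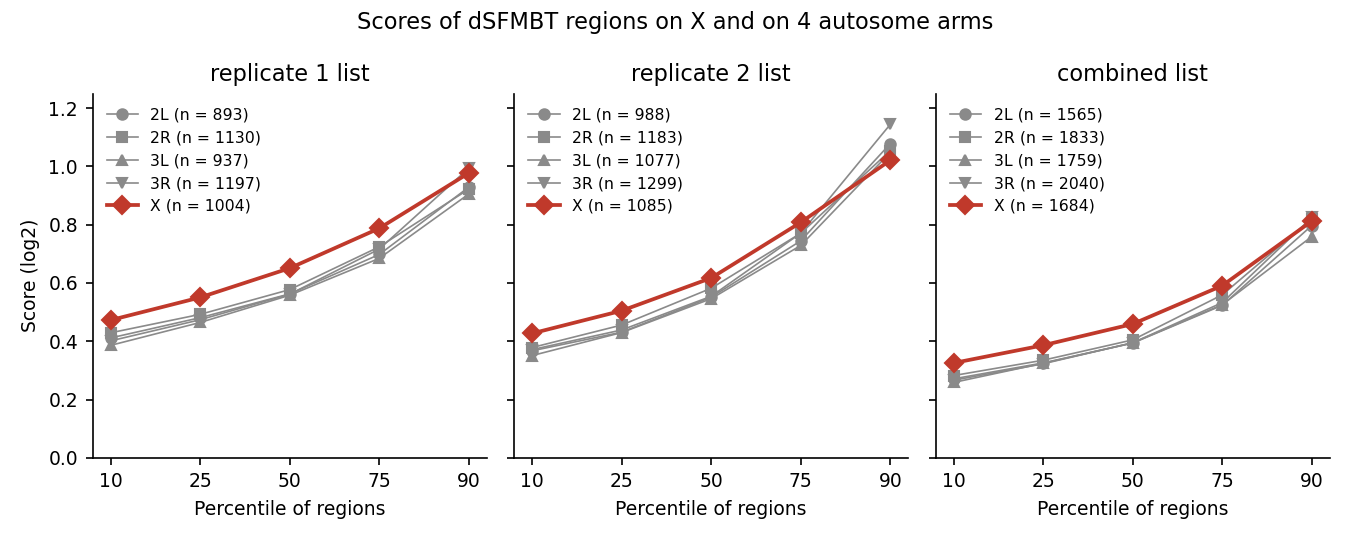
Scores (log2, vertical axis) at the 10th, 25th, 50th, 75th and 90th percentile of the regions of X (red diamonds) and of the autosome arms 2L, 2R, 3L and 3R (grey), in each of the 3 lists, with the number of regions in the legend. The red line lies above the grey ones from the 10th to the 75th percentile. At the 90th it lies among them in the combined and replicate 1 lists and below all 4 in the replicate 2 list.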

How the data were processed

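ChIP-seq of 2 ChIP and 2 input libraries was grouped by the sample titles. The submitters' processing notes name Bowtie 0.12.7 as the aligner, and the file headers give FlyBase release 5. Not given in the sources used here are the region caller and its threshold, how multi-mapping reads and inputs were handled, and how the replicates were combined. The deposited scores were read as log2 values because differences between the 12 most frequent scores of a list matched log2 of simple ratios in 16 to 44 of 66 pairs and matched natural log or log10 in 0 (tolerance 1e-07). The other deposited columns used were start and end in bp.

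A combined-list region was found in a replicate when it overlapped a region of that list by at least 1 bp, and its replicate score was the highest among those. Gaps were counted from end to start, bins by region centre. Intervals are exact Clopper-Pearson. The exact sign-flip test of the X minus autosome difference was chosen after the values were seen. Computation used numpy 2.4.6, pandas 2.3.3, scipy 1.17.1 and matplotlib 3.10.9, and overlaps, gaps and merging were checked on simulated lists against bedtools 2.31.1. Depth per library is unknown, so no precision from depth can be given. Whether the replicates are separate larval collections is not stated, so their spread may be technical.

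Regions were named by rule: the 15 highest by combined score, the 5 widest, the 5 with the largest difference between replicates, the 3 highest of each other class, the 5 longest empty stretches, the extreme bins and windows, and the first and last region. The members of the strong stretches and the region from 5790748 were named after their values were seen. The X regions and these rules were chosen with earlier results of these data known. The shares at promoters and at fixed genes were not analysed here, since they need a release 5 annotation.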

Additional observations from a re-analysis of the deposited data

How the results depend on the processing

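Limits come first from the files: no read counts, 2 libraries, and lists with different lower limits of width, so a region missing from a list may have been too narrow or too weak for it. With 50% of the region covered by each replicate, 637 regions were found in both, and the shares by score quartile were 9.26%, 15.9%, 39.4% and 86.7%, with a median score of 0.63. Replicate regions at or above the median of their list left 420, where fewer regions entered by construction. With a replicate left out, 892 to 1001 regions were found, covering 2.99 to 3.26 Mb in place of 2.63 Mb. By single-replicate scores in place of combined ones, the 709 regions found in both had a median of 0.68 to 0.70. By those scores 89 to 118 regions found in both were above 1. The whole combined list covered 4.30 Mb.

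The share with a neighbour within 10 kb, 91.1%, was 78.6% at 5 kb, 99.5% at 50 kb, 88.3% and 86.0% after merging across 500 bp and 1 kb, 76.3% for regions found in both, and 82.8% and 84.0% in the lists of replicates 1 and 2. The rank correlation, 0.71, was 0.58 at or above the median score, a narrower range by construction, and Pearson gave 0.84. The X minus autosome difference in median score, 0.062, was 0.085 in the replicate 1 list and 0.061 to 0.093 with a replicate left out. It was positive under each alternative run. The fullest bin, 108 per Mb, held 50 regions found in both, and the emptiest, 44 per Mb, was 12 for those, 17 in the replicate 1 list and 26 in the replicate 2 list.

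Of the alternatives chosen after seeing the data, joining within 25 kb in place of 50 kb left 4 stretches of at least 3 strong regions in place of 7, joining within 100 kb gave 6, and scores of a single replicate gave 8 to 12. Requiring the width of the narrowest replicate region raised the share found in both to 51.9%. Except where the construction shows it, the cause was not tested. Of 48 single-replicate scores of the named regions, 33 differed from the combined score by less than the SD of their own pair and 15 by more, which with 2 replicates is no measure of stability. No paired analysis was possible because the groups that share replicate numbers are ChIP and input, and for the inputs no regions were analysed here. Values of X and the autosome arms were compared within each library. The planned promoter and gene results were not run.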
